A study of Caenorhabditis elegans with 4 samples.

Results

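The histone genes of Caenorhabditis elegans were followed in adults of the mutant glp-4 on 4 spotted arrays with 2 channels each. The genes were taken by symbol, as every his, hil, htz or htas gene with a number that was the single gene of a probe, which gave 64 genes on 79 probes out of 20140 features on the arrays. All 64 had a value on at least 3 arrays and were tested. Of 82 histone genes that RefSeq lists under these symbols, the other 18 were not analysed here. On each array, RNA of a mixed wild-type reference (channel 1) was set against mRNA of 1 of 4 preps of glp-4 adults (channel 2). For both, the sources used here leave out the allele, the growth temperature, the age, the makeup of the reference and the way in which RNA was selected and primed. As background, the product of glp-4 charges tRNA with valine, and worms with its temperature-sensitive mutation become adults with very few germ cells when grown at the restrictive temperature. No label says that the preps are separate cultures. The p-values therefore cover only the spread of these 4 preps, and that spread may be technical.

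Histones pack DNA into nucleosomes, whose core holds H2A, H2B, H3 and H4. The genes of these core histones lie in repeated clusters in the worm genome, are known to be transcribed in S phase when DNA is copied, and in animals yield mRNAs that mostly end in a stem-loop in place of a poly(A) tail. Linker histones (H1) bind the DNA between nucleosomes, and variants such as H2A.Z and H3.3 are put into chromatin outside replication as well. Core genes of one class encode nearly identical proteins in the worm, so that 1 spot may detect more than 1 gene and the members are not independent of each other.

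Each value below is a log2 ratio within an array, glp-4 adults over reference, so that -1 stands for a 2-fold lower share. The direction is likely only: it rests on the array descriptions and the order of the channels with no dye named, and turning it would turn all signs. A ratio compares shares of RNA on an array and gives no level per worm or per cell, and in whole worms fewer cells of a type and less RNA per cell cannot be told apart. The array medians lay between -0.07 and 0.08. Germ line markers were lower in the adults. All 7 of 7 germ line genes and 4 of 4 oocyte genes passed the threshold (adjusted p under 0.05 in limma), with means from -4.84 to -2.16. Over all features tested, 20.9% were lower and 17.0% higher. Of 30 major sperm protein genes, which mark sperm, 29 were lower. The 4 intestinal and 4 muscle markers were all higher, with means from 1.09 to 3.52, and the 4 neuron markers were lower, with means from -1.95 to -0.55. The lowest neuron marker, snt-1, had -4.61 on prep 4 and -1.44 to -0.43 on the others. Of 1108 genes with chemoreceptor symbols, 18.7% were higher and 2.26% lower, so the 4 neuron markers do not stand for all neuronal genes. The part of any of these tissues in the histone values was not tested.

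Most linker and variant histone genes had ratios below those of the core genes, with some overlap. In glp-4 adults 12 of the 15 linker and variant genes were lower, 0 higher and 3 not past the threshold (limma, Benjamini-Hochberg adjusted p under 0.05 over all 19981 features tested). The 49 core genes split into 6 higher, 2 lower and 41 not past it. Across all features tested, 20.9% were lower and 17.0% were higher, 37.9% in either direction. The share of linker and variant genes that were lower was 80.0%, above that background, and the share of core genes was 4.08%, below it. The share of core genes that were higher, 12.2%, was also below the 17.0% of all features. At an unadjusted p under 0.05, 0 linker and variant genes were higher. The median over the genes was -1.48 for the linker and variant set and 0.01 for the core set, beside 0.00 for all features tested.

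The medians of both sets were apart on every array. The median of the linker and variant genes was -1.17, -1.77, -1.23 and -1.37 on preps 1 to 4. The median of the core genes was -0.13, -0.26, 0.17 and 0.23 in the same order. The linker and variant median thus lay below the core median by a log2 difference of 1 or more on each prep (mean difference -1.38 ± 0.25, SD, n = 4 preps). The smallest two-sided p that exact sign permutation allows here is 0.125, so the difference is given without a test. Of the 15 linker and variant genes, 11 had a mean below that of the lowest core gene, and the means of hil-8, his-69, hil-1 and his-70 lay within the core range of -0.74 to 0.96.

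**Figure D1:**
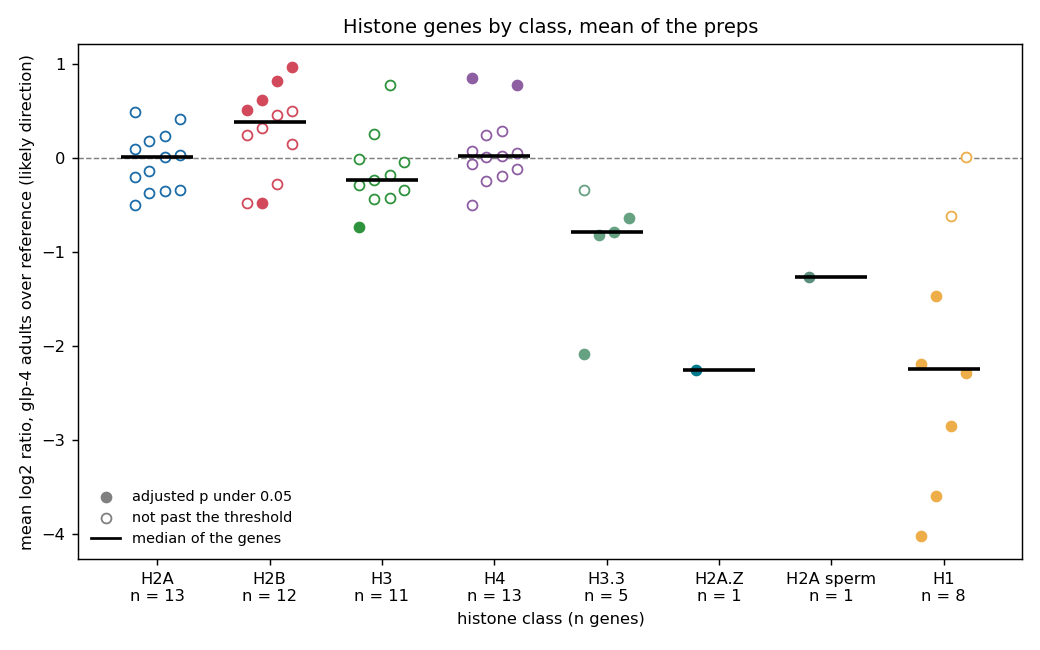
Mean log2 ratio (y axis, glp-4 adults over reference, likely direction) of each histone gene by class (x axis); filled points passed an adjusted p of 0.05, open points did not, and bars mark the median of the class. The core classes H2A, H2B, H3 and H4 lie between -0.74 and 0.96, while H3.3, H2A.Z, the sperm H2A and most H1 genes lie lower, down to -4.02.

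Among the linker histones, 6 of 8 were lower, all by more than 2-fold, and 2 did not pass. Over all features, 10.8% were lower by at least 2-fold. The lowest was hil-5 (B0414.3, chromosome I), a linker histone-like gene, with log2 ratios of -4.11, -4.72, -3.04 and -4.24 on preps 1 to 4. Its mean was -4.02 ± 0.71 (16.3-fold lower, adjusted p = 0.000131 in limma), and 0.11% of all features tested had a mean as low or lower. The related gene hil-4 (C18G1.5, chromosome V) had -4.04, -3.82, -3.72 and -2.85 on preps 1 to 4, with a mean of -3.60 ± 0.52 (12.2-fold lower, adjusted p = 0.000118 in limma). All values of both genes were far below 0, and the prep nearest to 0 was a different one for each, prep 3 for hil-5 and prep 4 for hil-4.

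The X-linked gene hil-3 (F22F1.1) had log2 ratios of -2.53, -2.90, -2.59 and -3.40 on preps 1 to 4 (mean -2.85 ± 0.40, adjusted p = 0.000129 in limma). The gene his-24 (M163.3, chromosome X), which encodes the worm's H1.1 and is known for its role in germ line silencing and fertility, had -1.92, -2.47, -1.94 and -2.48 (mean -2.20 ± 0.32, 4.60-fold lower, adjusted p = 0.000232 in limma). These preps lay close together for both genes. A wider spread was seen for hil-7 (C01B10.5, chromosome IV), with -1.15 on prep 1 and -2.30, -2.58 and -3.13 on the others (mean -2.29 ± 0.83, adjusted p = 0.00153 in limma). For hil-6 (F59A7.4, chromosome V) the preps gave -1.62, -1.76, -1.23 and -1.30 (mean -1.48 ± 0.25, adjusted p = 0.000757 in limma), and the means of its 2 probes differed by 0.04.

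The remaining linker genes did not pass. The gene hil-1 (C30G7.1, chromosome V) split into 2 pairs of preps, with -1.20 and -1.19 on preps 2 and 3 and -0.23 and 0.14 on preps 1 and 4 (mean -0.62 ± 0.68, adjusted p = 0.101 in limma, interval -1.24 to -0.00 at 95%). The gene hil-8 (T05E8.2, chromosome I) had 0.21, 0.39, -0.17 and -0.41, with a mean of 0.00 ± 0.36 and an interval of -0.43 to 0.44. Linker genes therefore ranged from 16.3-fold lower to a mean at 0, with hil-1 and hil-8 inside the range of the core genes.

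Both H2A variants were lower. The gene htz-1 (R08C7.3, chromosome IV), which encodes H2A.Z, a variant found at promoters of many genes, had -2.06, -2.35, -2.32 and -2.29 on preps 1 to 4. Its mean was -2.26 ± 0.13 (4.78-fold lower, adjusted p = 0.000123 in limma), the smallest spread among the 15 linker and variant genes. The gene htas-1 (ZK1251.1, chromosome IV), an H2A variant of sperm chromatin, had -1.02, -1.77, -0.86 and -1.43 (mean -1.27 ± 0.41, 2.41-fold lower, adjusted p = 0.00261 in limma), from 2 probes with means of -1.11 and -1.44. The H2A genes of the core set, by contrast, had means from -0.50 to 0.49.

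Of the 5 genes of the H3.3 type, which replace H3 outside replication, 4 were lower (80.0%, beside 20.9% of all features) and 1 did not pass. The lowest was his-74 (W05B10.1, chromosome V), with -1.67, -2.26 and -2.32 on preps 1 to 3 and no value on prep 4 (mean -2.08 ± 0.36, n = 3 preps, 4.24-fold lower, adjusted p = 0.000964 in limma). The 4 others were nearer to 0. The X-linked gene his-71 (F45E1.6) had -0.64, -1.27, -0.62 and -0.64 (mean -0.79 ± 0.32, adjusted p = 0.0115 in limma). For his-72 (Y49E10.6, chromosome III) 3 preps agreed closely, at -1.17, -1.17 and -1.16 on preps 1, 2 and 4, and prep 3 gave 0.22.

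Because of prep 3, the mean of his-72 was -0.82 ± 0.69 with an adjusted p of 0.0465 in limma, and without prep 3 it was -1.17 (adjusted p = 0.00675). The adjusted p of his-72 ranged from 0.00675 to 0.148 over its alternatives, and its call was lost in 7 of 12. The neighbours his-70 (E03A3.4) and his-69 (E03A3.3) on chromosome III differed in their calls. The former had -0.52, -1.06, -0.38 and -0.59 (mean -0.64 ± 0.30, adjusted p = 0.0241 in limma, up to 0.0735 without prep 2), and the latter had -0.18, -0.68, -0.26 and -0.26 (mean -0.34 ± 0.22, adjusted p = 0.124). All values of both genes were below 0, their ranges overlapped, and the difference between them was not tested.

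**Figure D2:**
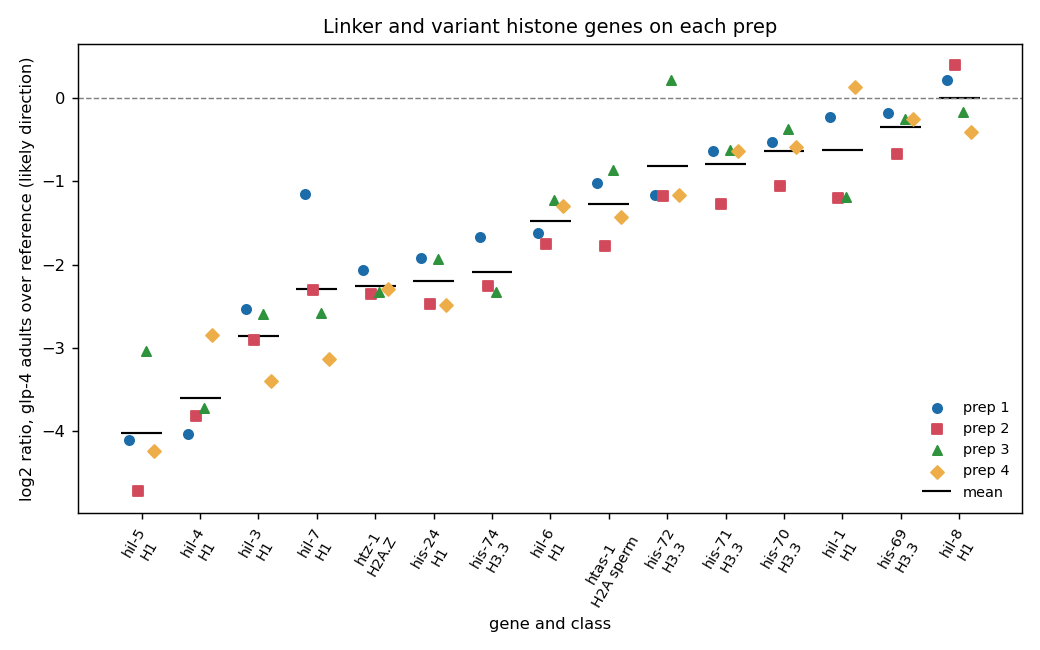
Log2 ratios (y axis, glp-4 adults over reference, likely direction) of the 15 linker and variant histone genes (x axis, with class) on each prep; symbols mark preps and bars the mean. On preps with a value, 12 genes lie below 0 throughout, and his-72 has 3 preps near -1.17 and prep 3 at 0.22.

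Core histone genes had ratios near 0. All 49 means lay within a log2 difference of 1 of 0, that is within 2-fold, and for 38 of them the whole 95% interval did. The signs of 35 genes were mixed over the preps, while 7 genes were above 0 and 7 below 0 on every prep. On preps 1 and 2, 18 and 15 of the 49 core genes were above 0, and on preps 3 and 4, 32 and 30. Across the 49 genes the preps correlated with Pearson's r from 0.0938, for preps 1 and 4, up to 0.662, for preps 1 and 2 (median 0.307). Among the 15 linker and variant genes the median r was 0.870, and over all features tested it was 0.757. These correlations are over genes that share the same arrays, and the narrow range of the core genes limits theirs. The values give no signal over background, and how RNA was selected and primed is not given. Whether a ratio near 0 reflects an equal share of core histone RNA was therefore not tested.

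The core classes were not all alike. The H2B genes had the highest median and the H3 genes the lowest. The H2B median was 0.23, -0.01, 0.23 and 0.61 on preps 1 to 4, and the H3 median was -0.41, -0.63, 0.12 and 0.01. H2B thus lay above H3 on all 4 preps, by differences of 0.63, 0.62, 0.11 and 0.60, which were given no test. H2B also lay above H4 on all 4 preps, by 0.05 to 0.42, but below H2A on prep 3, by a difference of 0.08. H3 lay below H2A on preps 1 to 3 and above it on prep 4, so neither rank held on every prep. The H2A medians, from -0.12 to 0.31 over the preps, and the H4 medians, from -0.25 to 0.46, lay on both sides of 0. Averaged over the preps, the H2B median was 0.27 and the H3 median -0.23, and both kept their sign under centring of each array and quantile normalization. Without prep 4 the H2B value was 0.15, and without prep 2 the H3 value was -0.09. Genes with chemoreceptor symbols, which are mostly weakly expressed in whole worms, had a median of 0.37 over 1108 genes, with 18.7% of them higher and 2.26% lower. Their medians were 0.35, 0.63, 0.04 and 0.30 on preps 1 to 4. H2B lay below them on preps 1 and 2 and above them on preps 3 and 4. A part of weak signal in the positive values of H2B and of other core genes was not tested.

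**Figure D3:**
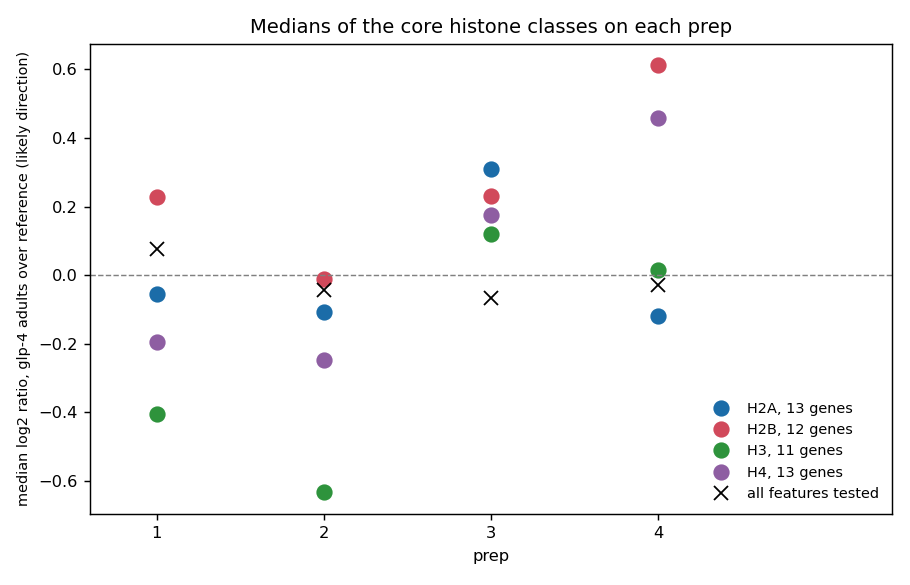
Median log2 ratio (y axis, glp-4 adults over reference, likely direction) of the genes of each core histone class on each prep (x axis); crosses show all features tested. H2B is above H3 on all 4 preps, by 0.11 on prep 3 and by about 0.6 on the others.

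The 12 H2B genes held 4 of the 6 higher core genes and 1 of the 2 lower ones. That made 33.3% of them higher and 8.33% lower, beside 17.0% and 20.9% of all features. The highest was his-44 (F08G2.1, chromosome II), with 0.65, 0.67, 1.23 and 1.30 on preps 1 to 4 (mean 0.96 ± 0.35, 1.95-fold higher, adjusted p = 0.00605 in limma). Next was his-39 (F45F2.2, chromosome V), with 0.73, 1.00, 0.92 and 0.63 (mean 0.82 ± 0.17, 1.76-fold higher, adjusted p = 0.00558 in limma). Both kept their calls in all 12 alternatives. The genes his-11 (0.62 ± 0.29) and his-15 (0.51 ± 0.25) on chromosome II, named after their values were seen, were also higher, with adjusted p-values of 0.0256 and 0.0439 in limma that rose to 0.103 and 0.165 without prep 4.

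The lowest H2B genes lie on chromosome IV. The gene his-66 (H02I12.6) had -0.19, -0.59, -0.49 and -0.67 (mean -0.48 ± 0.21, 1.40-fold lower, adjusted p = 0.0450 in limma, up to 0.155 without prep 4). These values average 2 probes with means of -0.72 and -0.25, which gave -1.43 and 0.09 on prep 4. The gene his-58 (F54E12.4) had a mean of -0.48 ± 0.43, which did not pass (adjusted p = 0.0930). Some positive H2B means rested on a single prep. The gene his-62 (F55G1.3, chromosome IV) had 1.90 on prep 4 and -0.25 to 0.08 on the others, and its mean of 0.45 became -0.03 without prep 4. Likewise his-8 (F45F2.12, chromosome V), named after its values were seen, had 1.35 on prep 4 and -0.40 to 0.07 on the others (mean 0.24 ± 0.77).

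Among the 13 H4 genes 2 passed, both higher (15.4%, beside 17.0% of all features). The gene his-38 (K03A1.6, chromosome X) had -0.04, 0.58, 1.35 and 1.51 on preps 1 to 4 (mean 0.85 ± 0.72, adjusted p = 0.0456 in limma, up to 0.156 without prep 4), and its 2 probes disagreed, with means of 0.22 and 1.48. The gene his-1 (T10C6.14, chromosome V) had 0.26, 0.36, 1.25 and 1.24 (mean 0.78 ± 0.54, 1.71-fold higher, adjusted p = 0.0324 in limma, up to 0.120 without prep 4). For both genes preps 3 and 4, whose titles share a date, were the high ones, and with this pair averaged to 1 unit both calls were lost (adjusted p = 0.140 for his-38 and 0.103 for his-1 in limma). At the other end, his-31 (F17E9.12, chromosome IV) had 0.31, -0.26, -0.70 and -1.36 (mean -0.51 ± 0.70) and his-37 (C50F4.7, chromosome V) a mean of -0.25 ± 0.15, neither past the threshold.

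Among the 11 H3 genes only 1 passed, and it was lower (9.09%, beside 20.9% of all features). The gene his-45 (B0035.10, chromosome IV) had -1.08, -0.97, -0.34 and -0.55 (mean -0.74 ± 0.35, 1.67-fold lower, adjusted p = 0.0174 in limma, 0.0615 without prep 1 and 0.0609 without prep 2). The next lowest, his-55 (F54E12.1, chromosome IV), had a mean of -0.44 ± 0.33 and was also below 0 on all 4 preps (adjusted p = 0.0868). The highest mean, that of his-2 (T10C6.13, chromosome V), came from prep 4 at 3.94, against -0.76, -0.24 and 0.17 on preps 1 to 3, so that its mean of 0.78 ± 2.14 became -0.28 without prep 4. For his-25 (ZK131.2, chromosome II) a value of 1.13 on prep 2 set the mean of 0.25 ± 0.59, and 1 of its 2 probes accounted for it: the probes differed by 2.49 on that prep.

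Of 13 H2A genes, 0 passed the threshold in limma, beside 37.9% of all features, and 1 had an unadjusted p under 0.05. The highest were his-3 (T10C6.12), with 0.18, 0.24, 0.98 and 0.55 (mean 0.49 ± 0.37, adjusted p = 0.0730 in limma), and his-7 (F45F2.4, mean 0.41 ± 0.58), both on chromosome V. The lowest were his-65 (H02I12.7, chromosome IV), with a mean of -0.50 ± 0.75 and a value of -1.59 on prep 4, and his-68 (T23D8.6, chromosome I), with -0.38 ± 0.50. The intervals of all H2A genes but 1 lay within 2-fold of 0.

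The core genes were then set in the order in which RefSeq (assembly WBcel235) lists them along the chromosomes. Clusters were taken as histone genes with at most 5 other protein-coding genes between neighbours. The 12 core genes of chromosome V had a median of 0.37 and 10 means above 0, the 13 genes of chromosome II had a median of 0.08 and 8 means above 0, and the 21 genes of chromosome IV had a median of -0.28 and 6 means above 0. Higher calls fell on 2 of the 12 genes of chromosome V, 3 of the 13 of chromosome II and the 1 gene of chromosome X. Both lower core genes were among the 21 of chromosome IV. Over all features tested, 17.0% were higher and 20.9% lower. The order of the chromosomes was not the same in each class. Within H2B, all 3 genes of chromosome II (median 0.62) and all 4 of chromosome V (median 0.41) had means above 0, and the 5 of chromosome IV had a median of -0.28. Within H3, 1 of 4 genes of chromosome II had a mean above 0 (median -0.21), as did 1 of 2 on chromosome V and 0 of 5 on chromosome IV (median -0.34). The chromosomes share arrays and near-identical genes, and this difference was not tested.

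The clusters themselves showed mixed values. In the cluster from his-16 to his-42 on chromosome II, with 13 core genes, the median was -0.05, 0.03, 0.17 and 0.17 on preps 1 to 4, and its 3 H2B genes were the 3 highest of the cluster. The cluster from his-47 to his-57 on chromosome IV, with 8 genes, had medians of -0.51, -0.60, -0.20 and -0.09, below 0 on all preps. The cluster from his-4 to his-1 on chromosome V, with 4 genes, had 0.20, 0.20, 0.68 and 0.90, above 0 on all preps, although his-2 within it was high on prep 4 alone. The other clusters of the same chromosomes did not keep their sign on every prep, but some had a median of means with the same sign. It was -0.24 from his-61 to his-59 and -0.41 from his-66 to his-64, both on chromosome IV. From his-8 to his-39 on chromosome V it was 0.28. The 3 genes from his-35 to his-37 on chromosome V had medians of 0.26, -0.30, -0.31 and -0.03, and the 5 genes from his-30 to his-34 on chromosome IV had 3 means above 0 and a median of 0.03. Within the chromosome II cluster the means ran from -0.43 to 0.96, a range not far from the -0.74 to 0.96 of all core genes.

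**Figure D4:**
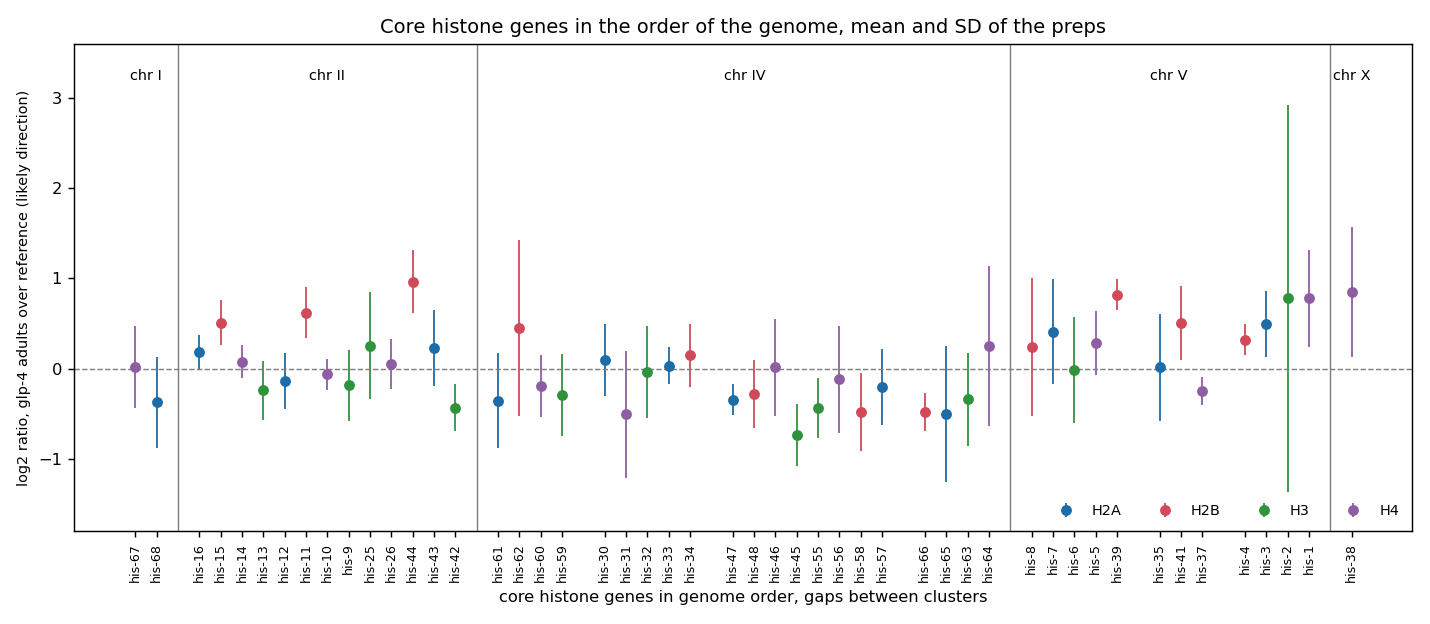
Mean log2 ratio (y axis, glp-4 adults over reference, likely direction) of each core histone gene in genome order (x axis), coloured by class; bars are SDs over the 4 preps, gaps part clusters and grey lines part chromosomes. Most chromosome IV genes lie below 0 and most chromosome V genes above it, and the wide bar of his-2 comes from 3.94 on prep 4.

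For 15 histone genes 2 probes were averaged. The means of both probes were within 0.5 of each other for 12 genes and further apart for 3, his-38 (by 1.25), his-25 (by 0.73) and his-34 (by 0.65). On single preps the probes of his-41 differed by 2.10 and those of his-66 by 1.52, both on prep 4. The means of both his-38 probes were thus further apart than the medians of any pair of core classes.

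Most genes that supply and place histones were lower. The list held 21 genes for histone mRNA processing, chaperones, chromatin assembly and the centromeric H3, of which 18 were measured. It was chosen with earlier results of these data known, so its share beside all features is a description only. In limma 17 of these were lower past the threshold (94.4%, beside 20.9% of all features), 0 were higher (also 0 at an unadjusted p under 0.05) and 1 did not pass. The list had a median of -1.96, and all 18 measured means were below 0. Its lowest member was nasp-2, a homologue of the NASP chaperone that binds H3 and H4, with -4.84, -4.54, -4.03 and -4.18 on preps 1 to 4 (mean -4.40 ± 0.36). The gene hcp-3, which encodes the centromeric H3, had -2.67, -3.02, -2.53 and -3.57 (mean -2.95 ± 0.46, adjusted p = 0.000153 in limma). All 4 preps were far below 0 for both genes.

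The chaperone gene asfl-1, a homologue of ASF1, had -2.68, -3.12, -2.56 and -2.75 (mean -2.78 ± 0.24, adjusted p = 9.61e-05 in limma). The gene cdl-1, which encodes the protein that binds the stem-loop of core histone mRNAs, had -2.44, -2.97, -1.97 and -3.07 (mean -2.61 ± 0.51, 6.11-fold lower, adjusted p = 0.000275 in limma). The highest value of cdl-1, -1.97 on prep 3, lay below the lowest value of any core histone gene on any prep, -1.59 for his-65 on prep 4. The member that did not pass, named after its value was seen, was xnp-1, a homologue of the H3.3-depositing remodeller ATRX (mean -0.66 ± 0.53, adjusted p = 0.0522), which passed in 4 of 12 alternatives.

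The list of S phase genes, for DNA replication and nucleotide supply, had 29 of 34 genes measured, with a median of -2.22. In limma 25 were lower (86.2%, beside 20.9% of all features), 0 were higher (also 0 at an unadjusted p under 0.05) and 4 did not pass. The furthest from 0 were the ribonucleotide reductase gene rnr-2 (mean -3.54 ± 0.24), the replicative helicase genes mcm-5 (-3.46 ± 0.90) and mcm-7 (-3.34 ± 0.41, n = 3 preps), and the origin recognition gene orc-1 (-3.09 ± 0.72). Those that did not pass, named after their values were seen, were rfc-2 (-0.02 ± 0.23), cdk-2 (-0.21 ± 0.31), cdt-1 (-0.35 ± 0.32) and pole-1 (-0.36 ± 0.21). The linker and variant histones as a whole had a median of -1.48, between both lists and the core histones at 0.01, but their classes differed, with H1 at -2.25 and H3.3 at -0.79. Both lists were chosen with earlier results of these data known, so their shares are descriptions only. The lists share the arrays and the reference with the histone genes, and the difference between the groups was not tested.

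**Figure D5:**
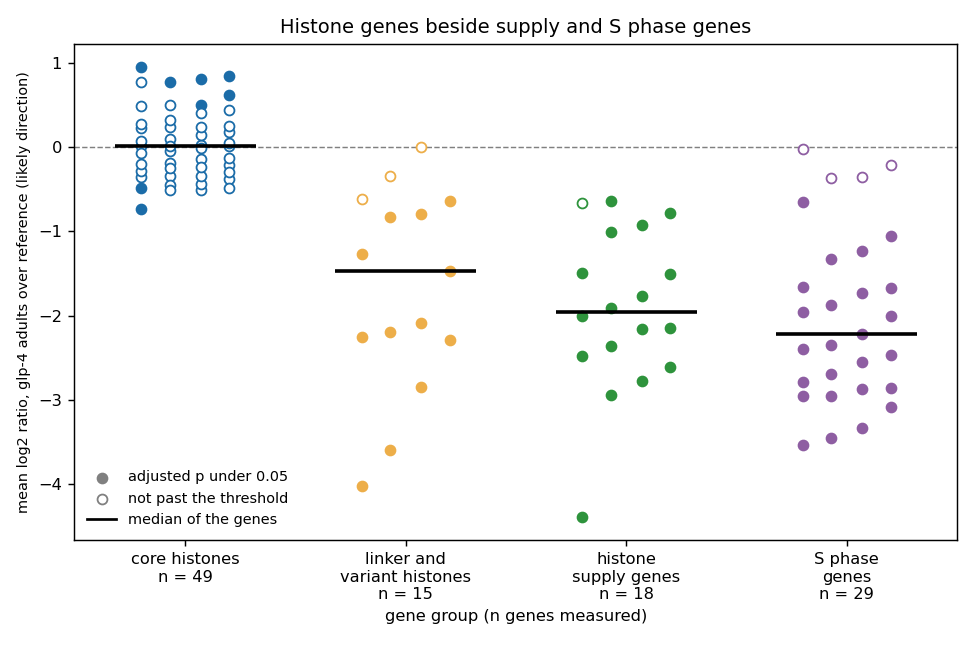
Mean log2 ratio (y axis, glp-4 adults over reference, likely direction) of core histone genes, linker and variant histone genes, histone supply genes and S phase genes (x axis); filled points passed an adjusted p of 0.05, open points did not, and bars mark medians. The medians are 0.01, -1.48, -1.96 and -2.22 in that order.

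The counts for the linker, variant, supply and S phase genes held without any 1 prep, with 10 to 12 linker and variant genes, 15 to 17 supply genes and 24 to 25 S phase genes lower. The 6 higher core genes were fewer without prep 2 (3), prep 3 (2) or prep 4 (2), and the 2 lower ones became 1 without prep 1, 3 or 4 and 0 without prep 2. Calls over all features fell as well. From 3403, the higher ones fell to 2361, 2602 and 2073 without preps 2, 3 and 4. From 4174, the lower ones fell to 3724, 3059, 3381 and 3083 without preps 1 to 4.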

How the data were processed

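The deposited values were log2 ratios of both channels, 1 column per array over 21632 probes, with the authors' background correction, normalization, spot filter and dyes not given in the sources used here. That these are log2 values was read from the table, where 100% of entries below -2 on each array match log2 of whole steps of 0.001. Genes were named through the platform annotation, and a gene's probes were averaged within an array. The 4 preps formed 1 group. Features measured on 3 or 4 arrays were tested with limma 3.58.1 in R 4.3.3 (intercept only, eBayes, two-sided against 0, Benjamini-Hochberg over 19981 features). The reference is the only wild-type RNA, so its own spread is left out. The values give no signal over background, and the small number of arrays limits precision.

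Histone classes came from gene symbols, with no protein sequences at hand. Named genes were all linker and variant genes, the 2 lowest and 2 highest of each core class, genes past the threshold against the sign of their class or list median, members with 1 prep far from the others, and the 4 listed genes furthest from 0 per list. Members and lists were chosen with earlier results of these data known. The code of the fit was run on simulated data with known shifts and independent noise. Such data cannot show how the fit handles preps that are not separate or spots that detect several genes. Tables were joined with Python 3.11.15 and pandas 2.3.3, and plots drawn with matplotlib 3.10.9.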

Additional observations from a re-analysis of the deposited data

Results flagged for a closer look

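Of 115 results with a value on all 4 preps (histone genes, class medians and listed genes), 8 had 1 prep far from the 3 others, or 6.96%, where chance flags about 1 in 20. On prep 2, his-71 had -1.27 against -0.64 to -0.62 on the others, his-55 had -0.94 against -0.31 to -0.24, his-42 had -0.82 against -0.34 to -0.24, and his-69 had -0.68 against -0.26 to -0.18. On prep 3, his-72 had 0.22 against -1.17 to -1.16, and the median of the H2A genes was 0.31 against -0.12 to -0.05. On prep 4, his-62 had 1.90 against -0.25 to 0.08, and his-26 had 0.46 against -0.12 to -0.04.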

How the results depend on the processing

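No paired analysis was possible because the 4 preps form 1 group. A block for the shared date in the titles of preps 3 and 4, or for the shared prefix of preps 1 and 2, could not be fitted with 4 arrays, so, chosen after seeing the data, each pair was averaged to 1 unit. Of 586 values of 49 named genes under the alternatives, 530 kept direction and side of the threshold, 36 lost their call, 4 gained one and 16 changed sign; the cause was not tested. The changes of sign were in genes without a call: hil-8 (-0.008 with quantile normalization, -0.058 with array weights, -0.094 with preps 1 and 2 as 1 unit, -0.12 to 0.14 without 1 prep), rfc-2 (0.0011 with centred arrays, 0.0082 with quantile normalization, 0.0095 with array weights, 0.014 with preps 1 and 2 as 1 unit, -0.12 to 0.048 without 1 prep), his-26 (-0.0052 with preps 3 and 4 as 1 unit, -0.089 to 0.10 without 1 prep), his-25 (-0.037 to 0.39 without 1 prep), his-2 (-0.28 to 1.29) and his-62 (-0.033 to 0.68). Higher core genes numbered 2 with preps 3 and 4 as 1 unit and 2 to 5 without 1 prep. Lower core genes numbered 1 with either pair as 1 unit, 1 with a robust fit and a trend in the spread, and 0 to 1 without 1 prep. Over all features, higher calls also fell, from 3403 to 2637, with preps 3 and 4 as 1 unit. Lower calls over all features fell from 4174 to 3496 with that pair averaged and to 3970 with preps 1 and 2 averaged. With the robust fit and trend they were 3951. Averaged over the preps, the medians of 3 sets changed sign without 1 prep: core (-0.08 to 0.09, and 0.02 with centred arrays and 0.01 with quantile normalization against -0.0008), H2A (-0.09 to 0.05) and H4 (-0.09 to 0.15); those of H2B, H3, H3.3, H1 and the linker and variant genes kept theirs.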
